A study of Mus musculus with 27 samples.

Results

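Mouse liver assembloids are aggregates that combine hepatocyte organoids (HepOrgs) with bile duct epithelial cells (cholangiocytes) and portal mesenchymal cells in 1 structure. The older fibrotic-like assembloids, collected 18 days after embedding (labelled 2.5 weeks), were compared with HepOrgs that had spent 14 days (2 weeks) in the same medium without the other cell types. The comparison used 3 fibrotic-like assembloid libraries and 3 HepOrg libraries, 6 of the 27 samples of the series, and all genes of the deposited count table. It addresses what bulk RNA-seq of the whole structure records once a HepOrg has been joined by a duct compartment and by an excess of mesenchyme.

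All groups compared here carried a C57BL/6 wild type label and were kept in MM, a basal organoid medium with Wnt-conditioned medium and a ROCK inhibitor. The HepOrgs were passage 2 organoids, first expanded in a hepatocyte medium (HM-Wnt) and then transferred to MM. Each fibrotic-like assembloid well had received 10 HepOrgs, 1000 cholangiocytes and 2500 portal mesenchymal cells, whereas the homeostatic assembloids had received 250 mesenchymal cells with the same numbers of the other components. By the study's methods the HepOrgs came from wild type mice, the cholangiocytes from animals with a nuclear tdTomato reporter, and the mesenchyme was sorted as SCA1+ cells from animals in which the Pdgfra locus drives a nuclear green fluorescent protein, with epithelial, endothelial and leukocyte surface markers excluded. The cholangiocytes had been expanded as organoids and the HepOrgs for aggregation were picked by hand, and the sources used here do not say whether the replicates were separate cultures or animals, so p-values measure only the spread between these libraries. The 2 groups also differ in culture time, 18 against 14 days. By the study's methods, HepOrgs for assembloids were released from their matrix and aggregated before embedding, in some cases after a period in MM. No such step is described for HepOrgs kept alone. These differences cannot be told apart from the presence of the added cells.

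In the portal tract of the liver, fibroblasts lie next to the bile ducts. Under cholestatic injury they deposit fibrillar collagens and other matrix proteins around the duct, while the neighbouring hepatocytes carry out plasma protein synthesis, metabolism and bile secretion. Fibrillar collagen chains are secreted as procollagens, trimmed and crosslinked by dedicated enzymes, and turned over by matrix metalloproteinases, whose activity is held in check by TIMP inhibitors.

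Total counts were 35069727 to 50165446 in the HepOrg libraries and 32893944 to 59705040 in the assembloid libraries. The first principal component held 70.88% of the variance and separated the groups, with HepOrg replicate 3 lying nearer to the assembloids (-47.6, against -108 and -106 for replicates 1 and 2). HepOrg replicate 3 also held macrophage transcripts, and assembloid replicate 2 combined the highest Krt19, Krt7 and Epcam levels, duct markers, with the lowest summed plasma protein transcripts; both libraries were kept, and counts are also given without them. The share of counts from the 13 mitochondrially encoded genes was 2.16 to 3.44% in HepOrgs and 2.05 to 2.25% in assembloids. The immediate early genes, which respond to cell handling, had 0 of 12 members past the threshold. Over all genes tested 8.6% were called higher and 1.84% lower. The log2 fold changes of the 12 ran from -1.55 to 1.36, so 0 calls do not show equal handling.

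The 2 reporter rows of the table followed the labels. The green reporter (eGFP), which marks the sorted mesenchyme, had 0 reads in all 3 HepOrg libraries and 554, 1954 and 10895 reads in the assembloids. The tdTomato reporter of the cholangiocytes likewise had 0 reads in HepOrgs and 250, 1583 and 4846 reads in the assembloids. Against a floor of 3 reads in a library, the mean eGFP level was at least 873-fold higher in assembloids and the mean tdTomato level at least 442-fold higher. The HepOrgs came from wild type mice, so 0 reads of either reporter were fixed by the design, in HepOrg replicate 3 too. They do not show whether wild type duct or mesenchymal cells were present in the HepOrg libraries. The homeostatic assembloids of the same age held 24, 33 and 855 eGFP reads and 86, 52 and 2224 tdTomato reads. Scaled together with the homeostatic and 1-week libraries, homeostatic replicate 3 exceeded fibrotic-like replicate 1 in eGFP, with 26 against 11.7 CPM. In tdTomato, homeostatic replicate 3 (67.6 CPM) lay within the range of the fibrotic-like libraries (5.28, 30.2 and 78.5 CPM).

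**Figure D1:**
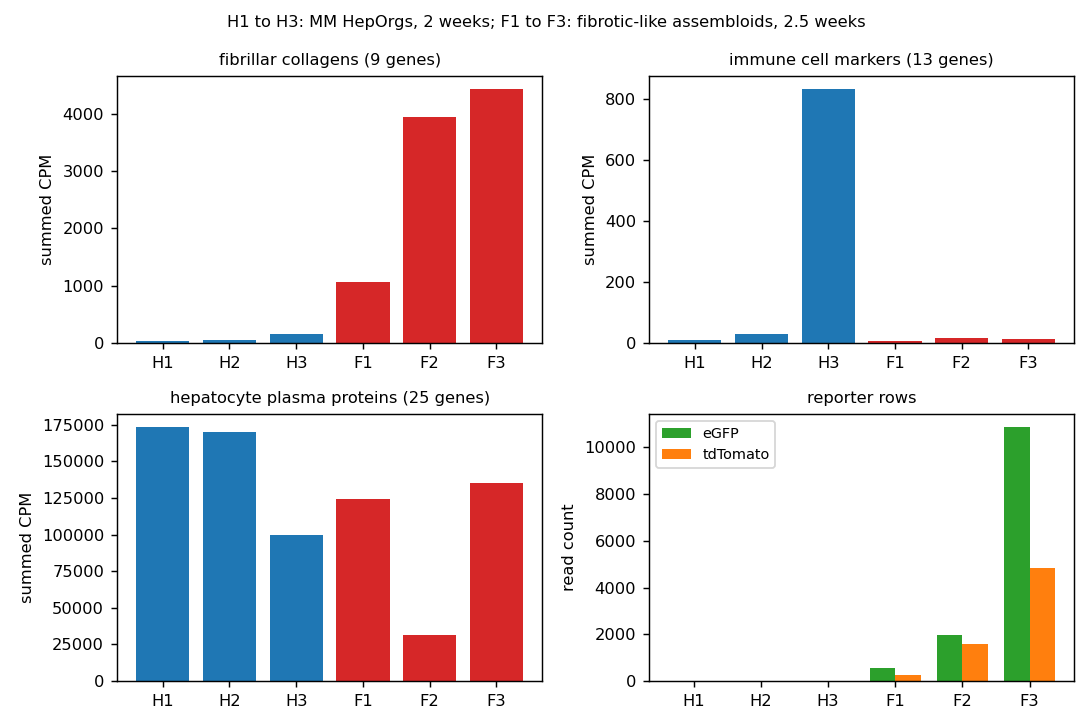
Summed TMM-normalised CPM of 3 gene lists and read counts of the 2 reporters in the 6 libraries; bars are single libraries (H1 to H3, MM HepOrgs at 2 weeks; F1 to F3, fibrotic-like assembloids at 2.5 weeks). Fibrillar collagens and both reporters are higher in every assembloid library than in any HepOrg library, the immune marker sum stands at 835 in H3 only, and the plasma protein sum is lowest in F2.

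Of 13239 genes that passed a filter on low counts, 1138 were higher in the late fibrotic-like assembloids than in MM HepOrgs and 243 were lower (edgeR quasi-likelihood test, Benjamini-Hochberg adjusted p under 0.05), that is 8.6% and 1.84% of the genes tested. Differences are log2 fold changes, assembloids over HepOrgs, with the standard error (SE), and levels are CPM, read counts scaled to library size with TMM normalisation. Genes are named by a fixed rule, and members named beyond it, such as Lum, Cldn3 or Wnt5a, were picked for their role after their values were seen. The increases were the larger changes: 836 of the genes called higher changed at least 4-fold and 316 at least 32-fold, whereas 28 of those called lower changed at least 4-fold. The median log2 fold change was 3.49 among genes called higher and -1.03 among genes called lower. In every called gene the 3 assembloid libraries lay apart from the 3 HepOrg libraries, which was also so for 24.2% (assembloids higher) and 16.5% (assembloids lower) of all genes tested. Because whole structures were measured in bulk, a greater share of a cell type and more RNA per cell of that type cannot be told apart here.

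The number of calls depended on single libraries. Without HepOrg replicate 1, HepOrg replicate 2 or assembloid replicate 3 it dropped from 1381 to 76, 13 and 130, and the gene lists below then kept at most 4 called members each. Without HepOrg replicate 3 it was 937 and without assembloid replicate 2 it was 1051. Of the 1381 genes, 1375 kept their sign in every alternative fit that held them. As the groups did not overlap in any called gene, omitting a library could hardly change a sign. Genes called higher made up 82.4% of calls here, 68.4% with DESeq2 (2053 higher and 947 lower) and 92.4% on log2(TPM + 1) values (461 higher and 38 lower), a scale on which the median over the 9465 genes tested was 0.331, against 0.047 over the 13239 genes here.

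**Figure D2:**
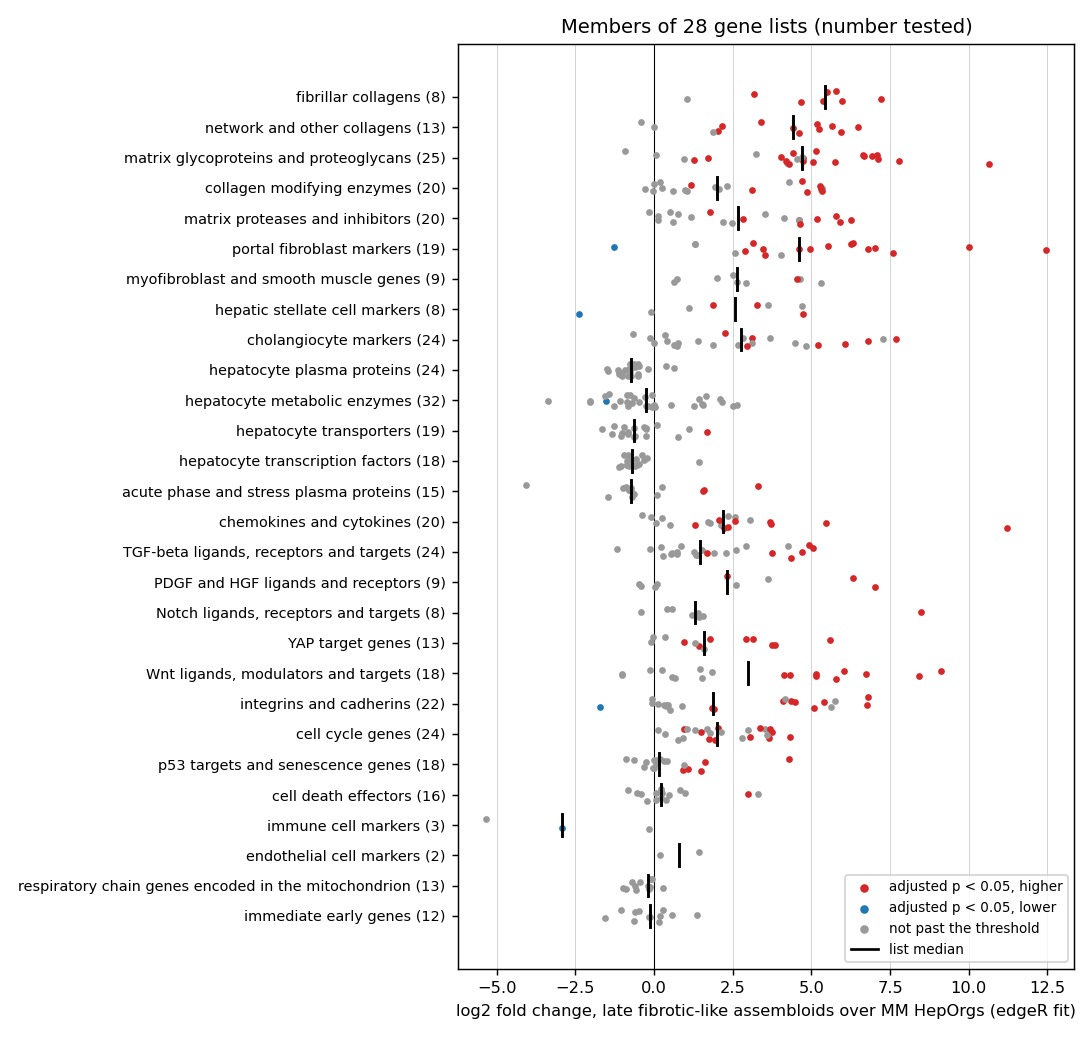
Log2 fold change of each tested member of 28 gene lists (x axis; assembloids over HepOrgs, edgeR fit), 1 list per line with its number of tested genes; red and blue points passed adjusted p under 0.05, grey points did not, and the black tick is the list median. Matrix and portal fibroblast lists have medians between 2.00 and 5.42, and the hepatocyte lists have medians between -0.74 and -0.27.

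The fibrillar collagens, the main scar proteins, were higher in the late fibrotic-like assembloids. Of 9 listed genes 8 passed the filter, 7 rose and 0 fell, with a median log2 fold change of 5.42 against 0.047 over all genes tested. Col1a1, which encodes the larger share of the type I collagen trimer and spans chr11:94827050-94843868 of GRCm39, stood at 3.07, 14.3 and 46.7 CPM in the HepOrgs and at 342, 1338 and 1197 CPM in the assembloids. Every assembloid library lay above every HepOrg library, and the difference was 5.49 ± 1.13 (adjusted p = 0.0345). Col1a2 (chr6:4504814-4541555), the partner chain, measured 2.05, 6.04 and 19.6 CPM in HepOrgs and 199, 636 and 883 CPM in assembloids, a difference of 5.96 ± 1.05 (adjusted p = 0.0256). Col3a1 (chr1:45350698-45395840), the type III collagen of early scars, went from 7.34, 18.4 and 77.1 CPM to 428, 1702 and 2093 CPM, a difference of 5.36 ± 1.11 (adjusted p = 0.0349). In all 3 genes HepOrg replicate 3 was the highest HepOrg library and assembloid replicate 1 the lowest assembloid library, and the groups did not overlap. The regulatory chains Col5a1, Col5a2, Col5a3 and Col11a1, which set fibril diameter, passed the threshold too, from low HepOrg levels, and Col27a1 did not (1.06 ± 0.30, adjusted p = 0.0735). The count was 5 of 8 without HepOrg replicate 3 and 5 of 8 without assembloid replicate 2. It was 0 of 8 without HepOrg replicate 1, HepOrg replicate 2 or assembloid replicate 3.

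The sequences just upstream of 2 fibrillar collagen genes that rose and of Alb, which did not pass the threshold, are shown as the regulatory sequence next to the starts of the genes on which the collagen and hepatocyte results turn. Each run holds the 200 bases before the GENCODE start of the gene on the plus strand of GRCm39, 5′ to 3′, with CCAAT or its reverse complement ATTGG and TATAAA or its reverse complement TTTATA in capitals. The windows are chr11:94826850-94827049 for Col1a1, chr1:45350498-45350697 for Col3a1 and chr5:90608549-90608748 for Alb.
Col1a1: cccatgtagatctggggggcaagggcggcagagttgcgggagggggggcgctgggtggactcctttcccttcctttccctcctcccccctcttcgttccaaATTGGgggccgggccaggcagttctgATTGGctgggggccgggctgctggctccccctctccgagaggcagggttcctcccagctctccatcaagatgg
Col3a1: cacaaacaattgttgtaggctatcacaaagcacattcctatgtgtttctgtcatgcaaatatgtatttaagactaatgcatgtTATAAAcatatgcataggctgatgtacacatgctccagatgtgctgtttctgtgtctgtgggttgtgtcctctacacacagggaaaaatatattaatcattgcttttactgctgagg
Alb: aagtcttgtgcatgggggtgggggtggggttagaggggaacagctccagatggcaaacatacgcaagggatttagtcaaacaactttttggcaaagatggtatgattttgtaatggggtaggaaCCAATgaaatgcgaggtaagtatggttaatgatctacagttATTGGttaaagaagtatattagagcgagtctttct
CCAAT was present in 32.4% of 21616 such windows and in 3 of 9 fibrillar collagen genes, and TATAAA in 9.6% and in 1 of 9. The Col1a1 and Alb windows held 2 CCAAT matches each, so this motif occurred upstream of a gene that rose and of one that did not pass the threshold.

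**Figure D3:**
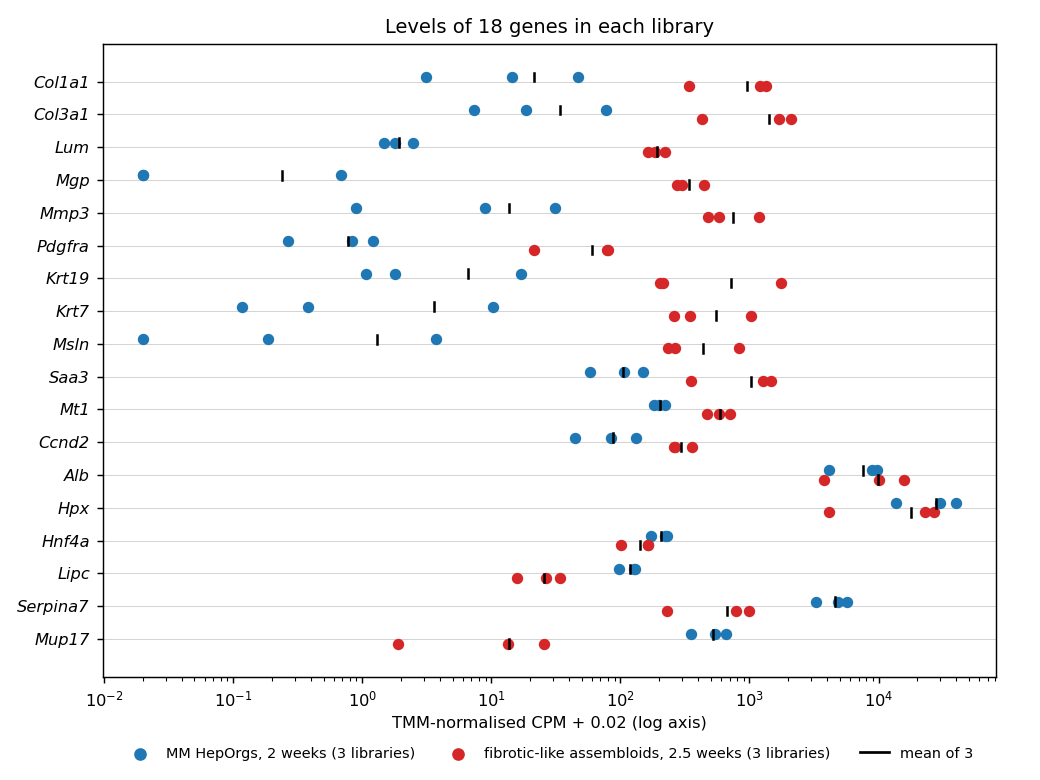
TMM-normalised CPM plus 0.02 (log axis) of 18 genes in each of the 3 MM HepOrg libraries (blue) and the 3 late fibrotic-like assembloid libraries (red); black ticks are the means of 3. Matrix, mesenchymal and duct genes such as Col1a1, Lum and Krt19 lie apart and to the right in assembloids, Alb, Hpx and Hnf4a overlap or nearly meet, and Serpina7 and Mup17 lie to the left.

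Network-forming and other collagens moved in the same direction. Of 14 listed genes 13 were tested, 10 rose and 0 fell (median log2 fold change 4.42). The basement membrane chains Col4a1 and Col4a2 rose by 2.15 ± 0.28 and 3.39 ± 0.68. All 3 measured type VI chains rose, and Col6a3 went from 0.0274, 0.743 and 0.389 CPM to 8.81, 39.1 and 58.9 CPM, a difference of 6.49 ± 1.09 (adjusted p = 0.0241). Col8a1, a short-chain collagen of vessel walls, had 1.2, 0.335 and 0.539 CPM in HepOrgs and 34, 40.9 and 28.9 CPM in assembloids (5.64 ± 0.50, adjusted p = 0.0102). Col18a1, a basement membrane collagen that hepatocytes also make, overlapped between the groups, with 65.2, 33.2 and 27.8 CPM against 25.7, 29.5 and 38.6 CPM and an adjusted p of 0.439. The count was 8 of 13 without HepOrg replicate 3 and 10 of 13 without assembloid replicate 2. It was 1 of 13 without HepOrg replicate 1, HepOrg replicate 2 or assembloid replicate 3.

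Among non-collagenous matrix proteins, 25 of 27 listed genes were tested, 18 rose and 0 fell (median log2 fold change 4.71). Lum, a small proteoglycan that binds collagen fibrils, had the lowest adjusted p of these genes, with 1.45, 2.44 and 1.77 CPM in HepOrgs and 162, 222 and 187 CPM in assembloids. Its difference was 6.65 ± 0.30 (adjusted p = 0.00146), and it passed the threshold in 15 of 17 alternatives. Postn, a matricellular protein of activated fibroblasts, was at 0, 0 and 0.21 CPM in HepOrgs and 29.8, 176 and 112 CPM in assembloids (10.63 ± 1.27, adjusted p = 0.0131). Dcn, Bgn and Sparc, which organise collagen fibrils, rose and reached 859.5, 684 and 893 CPM in their highest assembloid library. The elastic fibre genes Fbn1, Mfap4, Mfap5 and Emilin1 rose as well. Eln itself was near its floor in HepOrgs, with 0, 0 and 0.0299 CPM against 0.396, 1.54 and 1.71 CPM in assembloids (adjusted p = 0.0262).

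Fn1 departed from the other matrix genes. Fibronectin is made by hepatocytes for plasma as well as by fibroblasts for matrix, and Fn1 was at 3910.0, 3587 and 3084 CPM in HepOrgs and 1855, 1819 and 1869.9 CPM in assembloids. Every assembloid library lay below every HepOrg library, but the difference did not pass the threshold (-0.93 ± 0.27, adjusted p = 0.0735). Tnc, a glycoprotein of wounds, stood higher in the assembloids in each library (0.109, 0.623 and 4.88 CPM against 38.6, 52.5 and 12.8 CPM) and also missed the threshold (adjusted p = 0.077).

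Of the 20 collagen modifying enzymes, all of which were tested, 7 rose and 0 fell (median log2 fold change 2.00). Loxl1 and Loxl3, lysyl oxidases that crosslink collagen and elastin, rose by 5.27 ± 1.06 and 4.69 ± 0.85. Serpinh1, the collagen chaperone HSP47, went from 0.0821, 0.671 and 2.28 CPM to 16, 38.9 and 33.3 CPM (4.87 ± 1.00, adjusted p = 0.0344). Pcolce and Adamts2, which act in the removal of procollagen propeptides, also rose, with differences of 3.12 ± 0.39 (adjusted p = 0.0131) and 5.32 ± 1.00 (adjusted p = 0.0286). The hydroxylases Plod1, Plod2, Plod3 and P3h1, which act on collagens in many cell types, differed by -0.03 to 0.25, and 0 of these 4 passed the threshold. Lox itself had 0.164, 1.03 and 5.36 CPM in HepOrgs and 32.5, 192 and 35.6 CPM in assembloids, with the highest value in replicate 2, and did not pass the threshold (adjusted p = 0.0554).

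Matrix proteases and their inhibitors were split. Of 24 listed genes 20 were tested, 8 rose and 0 fell (median log2 fold change 2.66). Mmp2, a gelatinase of fibroblasts, went from 1.31, 3.69 and 8.59 CPM to 120.3, 403 and 511 CPM (6.25 ± 0.93, adjusted p = 0.017). Mmp3, the stromelysin, had 0.876, 8.86 and 31 CPM in HepOrgs and 580.3, 476 and 1192 CPM in assembloids (5.79 ± 1.27, adjusted p = 0.0388). Serpine2, an inhibitor of thrombin and plasminogen activators, rose from 9.12, 19.2 and 28.4 CPM to 608, 453 and 354 CPM (4.64 ± 0.49, adjusted p = 0.0119). The groups did not overlap in these 3 genes. Timp2 was higher in each assembloid library (2.76, 4.07 and 25.3 CPM against 79.6, 122 and 171 CPM) but missed the threshold (adjusted p = 0.0559). Mmp14, the membrane-bound activator of Mmp2, overlapped between the groups (0.51 ± 0.36, adjusted p = 0.387).

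Mmp7 and Mmp12 were high in HepOrg replicate 3. Mmp7, a protease of injured epithelia, was at 0, 0 and 78.3 CPM in HepOrgs and 54.8, 292 and 9.34 CPM in assembloids (2.19 ± 2.40, adjusted p = 0.572). Mmp12, the macrophage elastase, was at 0, 0.0479 and 54.3 CPM in HepOrgs and 0.022, 0.52 and 0 CPM in assembloids and did not pass the filter. Timp1, Timp3 and Timp4 were listed at 0 in all 27 libraries. Each lies wholly inside a synapsin gene on the other strand, and 712 of the 858 genes of the table that lie inside another gene were listed at 0, against 2511 of 20847 other genes, so no level is given for these inhibitors.

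Portal fibroblast markers followed the matrix genes. Of 22 listed genes 19 were tested, 14 rose and 1, Entpd2, fell, with a median log2 fold change of 4.59 (4.03 with genes at 0 in HepOrgs set to their lower bound). Pdgfra, the receptor whose locus drives the green reporter, was at 0.246, 0.815 and 1.2 CPM in HepOrgs and 21.2, 79.7 and 78 CPM in assembloids (6.31 ± 0.78, adjusted p = 0.0131). The eGFP row did not keep a fixed ratio to it, with 12.2, 39.1 and 184 CPM in the same 3 assembloid libraries. Pdgfrb, its sister receptor, rose by 7.02 ± 0.97 (adjusted p = 0.0149). Ly6a, which encodes the SCA1 antigen of the sort, was present in HepOrgs already and went from 13.9, 19.2 and 40.0 CPM to 84.9, 218 and 245 CPM (2.90 ± 0.55, adjusted p = 0.0297).

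Cdh11, the fibroblast cadherin, had the lowest adjusted p of this list and went from 0.192, 0.144 and 0.509 CPM to 20.6, 45.2 and 27.1 CPM (6.80 ± 0.59, adjusted p = 0.0102). Ddr2, a receptor for fibrillar collagen, and Axl, a receptor for the ligand GAS6, rose by 5.53 ± 0.62 (adjusted p = 0.0126) and 3.13 ± 0.50 (adjusted p = 0.0213). Gas6 itself stood at 195, 152 and 213 CPM in HepOrgs and 257, 440.0 and 679 CPM in assembloids, without overlap but short of the threshold (adjusted p = 0.072). Dpt and Osr1, genes of adventitial fibroblasts, had no HepOrg reads, and their mean level in assembloids was at least 177-fold and at least 32.5-fold higher against the floor of 3 reads in a library. Vim, an intermediate filament that hepatocytes gain in culture, was at 67.5, 27.7 and 44 CPM in HepOrgs and 74.1, 189 and 83.1 CPM in assembloids (1.31 ± 0.47, adjusted p = 0.119). Entpd2, an ectonucleotidase used as a portal fibroblast marker, fell from 24.2, 28.1 and 24.5 CPM to 11.7, 10.6 and 9.33 CPM (-1.28 ± 0.16, adjusted p = 0.0139). The count of markers that rose was 11 of 19 without HepOrg replicate 3 and 10 of 19 without assembloid replicate 2. Without HepOrg replicate 1, HepOrg replicate 2 or assembloid replicate 3 it was 2, 0 and 3 of 19.

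Contractile genes of myofibroblasts were less uniform. Of 14 listed genes 9 were tested and 1, Cnn2, rose, against 8.6% of all genes tested, although the median log2 fold change was 2.63. Cnn2, a calponin of non-muscle cells, went from 0.985, 2.88 and 5 CPM to 43.9, 97.7 and 62.9 CPM (4.53 ± 0.64, adjusted p = 0.0159). Acta2, the smooth muscle actin by which myofibroblasts are usually recognised, was at 0, 0.0719 and 2.13 CPM in HepOrgs and 10.0, 66.1 and 8.72 CPM in assembloids. All 3 assembloid libraries were above the HepOrgs, the spread between them was wide, and the difference did not pass the threshold (5.30 ± 1.66, adjusted p = 0.0898). Tagln had the same form, with 1.7, 1.29 and 2.87 CPM against 6.3, 26.4 and 3.62 CPM (adjusted p = 0.0829). Assembloid replicate 2 was the highest library for Acta2, Tagln and Myl9. DESeq2 called 6 of these genes higher.

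Markers of hepatic stellate cells, the other collagen-producing cells of the liver, were checked because the sort could hold them. Of 10 listed genes 8 were tested, 3 rose and 1 fell, with a median log2 fold change of 2.57. In 5 of the 8 every assembloid library lay above every HepOrg library, against 24.2% of all genes tested. The summed level of the list was 27.5, 67.4 and 82.1 CPM in HepOrgs and 152, 575 and 209.6 CPM in assembloids, most of it from Ecm1 in the assembloids. Lrat, the retinol-esterifying enzyme that defines the quiescent cell, was at 0.0274, 0.0958 and 0.12 CPM in HepOrgs and 0.44, 0 and 0 CPM in assembloids, and the difference of Reln was -0.10 ± 0.70 (adjusted p = 0.932). Ecm1, which hepatocytes also express, rose by 3.26 ± 0.74 (adjusted p = 0.0432), and Colec11 rose from near its floor. Angptl6 fell by 2.38 ± 0.37 on the log2 scale (adjusted p = 0.0201). The count that rose was 0 of 8 without HepOrg replicate 3 and 1 of 8 without assembloid replicate 2.

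Cholangiocyte markers rose in part. Of 26 listed genes 24 were tested, 7 rose and 0 fell, with a median log2 fold change of 2.75. Krt19, the keratin of duct cells, was at 1.78, 1.05 and 16.8 CPM in HepOrgs and 212, 1757 and 204 CPM in assembloids (6.79 ± 1.61, adjusted p = 0.0466). Its partner Krt7 had 0.356, 0.0958 and 10.2 CPM against 259.8, 1033 and 344 CPM and missed the threshold (7.27 ± 1.83, adjusted p = 0.0537), as did Epcam, the epithelial adhesion molecule of ducts (4.47 ± 1.34, adjusted p = 0.0808). In all 3 genes the groups did not overlap, assembloid replicate 2 was the highest and HepOrg replicate 3 was the highest HepOrg library. Anxa13 and Ezr, an annexin and a membrane-cytoskeleton linker of the apical membrane, rose by 6.08 ± 0.73 (adjusted p = 0.0131) and 2.96 ± 0.40 (adjusted p = 0.0144). Ano1, the calcium-activated chloride channel of duct secretion, went from 0.849, 0.839 and 8.95 CPM to 79.1, 231 and 78.1 CPM (5.20 ± 1.16, adjusted p = 0.0402).

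Several genes used as duct markers were already present in HepOrgs. Sox9, the duct and progenitor transcription factor, was at 31.2, 37.6 and 22.3 CPM in HepOrgs and 34, 58.3 and 28.9 CPM in assembloids (0.41 ± 0.32, adjusted p = 0.421). Spp1 (osteopontin) was at 12756, 11791 and 8700.4 CPM and 9152, 5411 and 6385 CPM (-0.67 ± 0.42, adjusted p = 0.328). Cldn3, a tight junction protein, was at 226, 238 and 215 CPM and 176, 238 and 206 CPM (-0.13 ± 0.18, adjusted p = 0.647). In all 3 genes the groups overlapped. Cftr and Sctr, the chloride channel and the secretin receptor of mature ducts, were at or near 0 in most libraries and did not pass the filter. The count of markers that rose was 9 of 24 without HepOrg replicate 3 and 5 of 24 without assembloid replicate 2. Without HepOrg replicate 1, HepOrg replicate 2 or assembloid replicate 3 it was 0, 0 and 1 of 24.

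Among integrins and cadherins, 22 of 22 listed genes were tested, 9 rose and 1 fell (median log2 fold change 1.87). Itga3 and Itgb4, laminin-binding integrin subunits of epithelia, rose by 1.85 ± 0.21 (adjusted p = 0.0126) and 4.11 ± 0.51 (adjusted p = 0.0131). Itga8 and Itga11, subunits of mesenchymal cells, and Cdh6 rose too. Itgb1, the common beta subunit, was at 197, 215 and 279.9 CPM in HepOrgs and 308, 315 and 319 CPM in assembloids. It was higher in each assembloid library, by 0.45 ± 0.19 (adjusted p = 0.176), short of the threshold. Cd63, a tetraspanin, overlapped between the groups (-0.07 ± 0.26, adjusted p = 0.887). Itga7 fell from 22.3, 16.3 and 25.7 CPM to 6.83, 6.2 and 6.34 CPM (-1.73 ± 0.22, adjusted p = 0.0131).

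Hepatocyte plasma protein genes did not pass the threshold in either direction. Of 26 listed genes 24 were tested and 0 were called, and the median log2 fold change was -0.74. Fold changes were below 0 in 22 of the 24. In 5 genes every assembloid library lay below every HepOrg library, against 16.5% of all genes tested. Alb, which encodes albumin, was at 8858, 4127 and 9661 CPM in HepOrgs and 10118, 3756 and 15866 CPM in assembloids. The groups overlapped, and the difference was 0.39 ± 0.64 (adjusted p = 0.71). Hpx, the haem scavenger hemopexin, was at 39689.7, 29878 and 13716 CPM and 22741, 4104 and 26922 CPM (-0.63 ± 0.83, adjusted p = 0.643), and Fgb, a fibrinogen chain, at 19936, 23612 and 12309 CPM and 14893, 3533 and 14276 CPM (-0.77 ± 0.67, adjusted p = 0.473). Assembloid replicate 2 was the lowest library for all 3 genes. Without it 0 of these genes rose and 2 fell, and the list median was -0.36. DESeq2 called 4 of the 24 lower.

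Metabolic enzymes spread in both directions. Of 34 listed genes 32 were tested, 1 fell and 0 rose (median log2 fold change -0.27), against 1.84% and 8.6% of all genes tested. In 8 genes every assembloid library lay below every HepOrg library, and in 1 gene above. Over all genes tested these shares were 16.5% and 24.2%. Cyp3a11, a drug-metabolising cytochrome, was at 555, 405 and 476 CPM in HepOrgs and 964, 34.1 and 376 CPM in assembloids, with assembloid replicate 2 the lowest of its group (-0.06 ± 0.94, adjusted p = 0.969). The pericentral cytochrome Cyp2e1 was lower in each assembloid library (425, 49 and 117 CPM against 20.9, 0.88 and 35.1 CPM) and the periportal Cyp2f2 higher (2.52, 1.84 and 0.419 CPM against 15.1, 4.34 and 10.6 CPM), and both missed the threshold (adjusted p = 0.144 and 0.0666).

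Hepatocyte transporters and transcription factors had fold changes mostly below 0, in 15 of 19 and 17 of 18 tested genes. The same held for 22 of 24 plasma protein genes and 21 of 32 metabolic enzymes. The median over all genes tested was 0.047. Assembloid replicate 2 had the lowest summed level of the transporter and the transcription factor lists. Without it their medians were -0.26 and -0.44, in place of -0.65 and -0.71. Of the 20 transporters 19 were tested, and 1 rose and 0 fell, against 8.6% and 1.84% of all genes tested. The 1 that rose was Abcb1b, a multidrug efflux pump (1.67 ± 0.32, adjusted p = 0.0312). The canalicular bile salt pump Abcb11 was at 98.7, 94.2 and 50.8 CPM in HepOrgs and 54.3, 3.92 and 66.2 CPM in assembloids (-0.97 ± 0.87, adjusted p = 0.484). The phospholipid transporter Abcb4 was lower in each assembloid library (380.1, 294 and 322 CPM against 165, 35.3 and 208 CPM) and missed the threshold (adjusted p = 0.196). Abcc2 and the basolateral pump Abcc3 differed by -0.27 ± 0.47 (adjusted p = 0.731) and -0.27 ± 0.19 (adjusted p = 0.385). Of 18 transcription factors all were tested and 0 were called, with a median log2 fold change of -0.71, and in 9 of them (against 16.5% of all genes tested) every assembloid library lay below every HepOrg library. Hnf4a, the regulator of hepatocyte identity, was at 228, 220.1 and 173 CPM and 162, 102 and 163 CPM, just without overlap (-0.54 ± 0.24, adjusted p = 0.187).

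The other hepatocyte lists were also set against the plasma protein median of -0.74. The median after centring on it was 0.48 for metabolic enzymes, 0.09 for transporters and 0.04 for transcription factors. Within the metabolic enzymes the centred values ran from -2.63 (Cyp2e1) to 3.39 (Cyp2f2), and 13 of 32 lay more than 2-fold from the centre. These are descriptions and were not tested.

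The genes called lower with the lowest fold changes included hepatocyte secretion products and genes of lipid metabolism. Under the fixed naming rule they were Mup17, Mup18, Mup22, Serpina7, Lipc, Gstp3, Acsl1, Angptl4, Trib3 and Abcd3. Mup17, a major urinary protein made by the liver, went from 656, 544 and 353 CPM to 25.5, 1.86 and 13.4 CPM (-5.25 ± 0.94, adjusted p = 0.0267). The Mup genes and Gstp3 have near-identical copies in the genome, so the assignment of reads among copies is uncertain. Serpina7, thyroxine-binding globulin, went from 4848, 5717 and 3278 CPM to 993, 229.8 and 782 CPM (-2.79 ± 0.60, adjusted p = 0.0371). Lipc, the hepatic lipase, went from 97.4, 131 and 127 CPM to 26.6, 15.7 and 33.8 CPM (-2.22 ± 0.31, adjusted p = 0.0151). Acsl1, which activates long-chain fatty acids, and Abcd3, a peroxisomal fatty acid transporter, fell by 1.88 ± 0.35 and 1.76 ± 0.37 on the log2 scale. Angptl4, an inhibitor of lipoprotein lipase, had 235, 204 and 302 CPM in HepOrgs and 91.2, 39.8 and 81 CPM in assembloids (-1.80 ± 0.34, adjusted p = 0.0297).

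Acute phase genes, which hepatocytes induce under cytokine stimulation, were split. Of 15 listed genes, all tested, 3 rose and 0 fell, while the median was -0.74. Saa3, the serum amyloid A that fibroblasts and macrophages also make, rose from 107, 57.9 and 149 CPM to 353, 1266 and 1459 CPM (3.29 ± 0.63, adjusted p = 0.0297). Its liver-made relatives Saa1 and Saa2 overlapped between the groups, with Saa1 at 5097, 2972 and 1316 CPM and 2332, 95.5 and 2574 CPM (-0.91 ± 1.06, adjusted p = 0.597). Mt1 and Mt2, the metallothioneins that bind zinc and copper, rose by 1.54 ± 0.22 (adjusted p = 0.0165) and 1.58 ± 0.23 (adjusted p = 0.0164). Mt1 was at 181, 223 and 199 CPM in HepOrgs and 706, 471 and 581 CPM in assembloids. Hamp, which encodes the iron hormone hepcidin, was at 8.9, 96.8 and 175 CPM and 11.4, 4.54 and 0.777 CPM, a wide spread in both groups (-4.07 ± 1.29, adjusted p = 0.0921).

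Chemokines and cytokines gave 9 genes that rose and 0 that fell among 20 tested of 27 listed (median log2 fold change 2.18). Ccl11, the eosinophil chemokine eotaxin, was at 0, 0 and 0.12 CPM in HepOrgs and 18.9, 103 and 160.0 CPM in assembloids (11.23 ± 1.34, adjusted p = 0.0131). Cxcl12, which retains leukocytes and progenitors through CXCR4, went from 37.9, 49 and 54.7 CPM to 102, 222 and 267 CPM (2.06 ± 0.37, adjusted p = 0.0275). Cxcl16 and Csf1, ligands of lymphocytes and macrophages, rose by 2.23 ± 0.28 (adjusted p = 0.0131) and 2.56 ± 0.43 (adjusted p = 0.0247). Il33, an alarmin, and Il34, another ligand of the CSF1 receptor, rose by 3.69 ± 0.66 (adjusted p = 0.026) and 2.35 ± 0.28 (adjusted p = 0.0131). Cxcl1, a neutrophil chemokine, was already present in HepOrgs and overlapped (126, 137 and 115 CPM against 208, 99.9 and 229 CPM, 0.51 ± 0.32, adjusted p = 0.322). Cxcl5 and Ccl8 were high in HepOrg replicate 3, at 157 and 45.3 CPM, and did not pass the threshold. Ccl2 and Cxcl10 were listed at 0 in all 27 libraries. Cxcl10 lies wholly inside Art3 on the other strand, as Timp1, Timp3 and Timp4 lie inside synapsin genes, so no level is given for it. Ccl2 lies inside no other gene of the table, and the cause of its 0 was not tested.

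Fibrogenic growth factor pathways were described by ligands, receptors and targets. TGF-beta drives matrix gene transcription through SMAD proteins, and of 24 listed genes, all tested, 6 rose and 0 fell (median log2 fold change 1.46). The ligand Tgfb1 was low in both groups (0.164, 0.168 and 0.299 CPM against 0.242, 0.54 and 0.895 CPM), Tgfb2 overlapped (0.21 ± 0.46, adjusted p = 0.792) and Tgfb3 missed the threshold (2.28 ± 0.83, adjusted p = 0.123). The receptors Tgfbr2, Tgfbr3 and Eng rose, with Tgfbr2 going from 49.7, 36.1 and 60.4 CPM to 106, 169 and 195 CPM (1.69 ± 0.30, adjusted p = 0.0256). The latent-complex proteins Ltbp1 and Ltbp2, which hold TGF-beta in the matrix, rose by 4.92 ± 0.65 (adjusted p = 0.0141) and 5.05 ± 0.57 (adjusted p = 0.0127). Smad7 and Skil, feedback targets of the pathway, differed by 1.34 ± 0.51 (adjusted p = 0.136) and -0.12 ± 0.40 (adjusted p = 0.859).

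PDGF and HGF carry signals between epithelium and mesenchyme, PDGF mostly toward and HGF from the mesenchyme. Of 9 listed genes, all tested, 3 rose and 0 fell. The receptors Pdgfra and Pdgfrb rose with the fibroblast markers, and the ligand Pdgfb rose from 1.97, 0.934 and 1.35 CPM to 4.27, 11.9 and 4.97 CPM (2.31 ± 0.53, adjusted p = 0.0426). Pdgfa and Pdgfc, which were already present in HepOrgs, differed by 0.01 ± 0.17 (adjusted p = 0.967) and 0.11 ± 0.28 (adjusted p = 0.823). Hgf was higher in each assembloid library (0, 0.767 and 2.63 CPM against 7.4, 17.1 and 17.4 CPM) and missed the threshold (adjusted p = 0.103). Its receptor Met was lower in each (71.7, 65 and 60.7 CPM against 46, 48.8 and 52 CPM, adjusted p = 0.0974).

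Notch signalling patterns bile ducts, and 1 of its 8 tested genes rose, of 12 listed, against 8.6% of all genes tested. That gene, the target Heyl, had no HepOrg reads and a mean at least 11.2-fold higher in assembloids. The ligand Jag1 was higher in each assembloid library and missed the threshold (1.39 ± 0.44, adjusted p = 0.0923). The YAP list held target genes, which report stretch and matrix stiffness, and also Yap1, Wwtr1 and Tead1 of the pathway itself. Of its 14 genes 13 were tested, 8 rose and 0 fell (median log2 fold change 1.6), against 8.6% and 1.84% of all genes tested. Ankrd1, a canonical YAP target, went from 7.88, 4.03 and 11.4 CPM to 105, 102 and 127 CPM (3.84 ± 0.40, adjusted p = 0.0119). Ccn2, the connective tissue growth factor that TGF-beta also induces, went from 43.1, 16.7 and 32.8 CPM to 301, 646 and 302 CPM (3.75 ± 0.50, adjusted p = 0.0141). Yap1 and Wwtr1, the cofactors themselves, differed by -0.10 ± 0.14 (adjusted p = 0.673) and -0.03 ± 0.12 (adjusted p = 0.882).

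Wnt genes were measured in cultures that all received Wnt-conditioned medium. Of 22 listed genes 18 were tested, 9 rose and 0 fell, with a median log2 fold change of 2.98 (2.64 with genes at 0 in HepOrgs set to their lower bound). The ligands Wnt4, Wnt5a and Wnt7b rose, and Wnt5a went from 0.958, 0.503 and 1.02 CPM to 9.64, 50.6 and 26.7 CPM (5.13 ± 0.70, adjusted p = 0.0146). The secreted antagonists Sfrp1, Sfrp2, Dkk2 and Dkk3 rose too, and Sfrp2 went from 0.137, 0.335 and 1.5 CPM to 23.4, 57.4 and 126 CPM (6.74 ± 1.07, adjusted p = 0.0205). Axin2 and Lgr5, targets of canonical signalling, were low in both groups and did not pass the threshold. Glul, a pericentral hepatocyte target, was at 152, 144 and 227 CPM in HepOrgs and 142, 25.2 and 90.1 CPM in assembloids (-1.02 ± 0.58, adjusted p = 0.276). The count of Wnt genes that rose was 10 of 18 without HepOrg replicate 3 and 6 of 18 without assembloid replicate 2. Without HepOrg replicate 1, HepOrg replicate 2 or assembloid replicate 3 it was 2, 0 and 1 of 18.

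Cell cycle genes rose in part. Of 24 listed genes, all tested, 11 rose and 0 fell, and all 24 fold changes were above 0 (median 1.99). Top2a, the topoisomerase of replicating cells, went from 0.602, 0.719 and 0.629 CPM to 5.61, 23.2 and 10.7 CPM (4.33 ± 0.58, adjusted p = 0.0142). Ccnd2, a G1 cyclin, went from 84.6, 44.5 and 132 CPM to 264, 359 and 262 CPM (1.76 ± 0.40, adjusted p = 0.0426). Mki67, the proliferation antigen, had 1.42, 0.431 and 0.21 CPM in HepOrgs and 3.79, 14.8 and 5.17 CPM in assembloids, without overlap, and missed the threshold (3.52 ± 0.87, adjusted p = 0.0512). Assembloid replicate 2 was the highest library for these 3 genes, and without it 7 of the listed genes rose. With HepOrgs at 1 week as the control, 3 rose and 1 fell.

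Genes of the p53 response and of senescence were split, with 5 of 18 tested genes higher and 0 lower (median log2 fold change 0.14). Plk2 and Ccng1, targets of p53, rose by 1.63 ± 0.20 (adjusted p = 0.0131) and 1.09 ± 0.18 (adjusted p = 0.0216). Cdkn1a, the central p53 target p21, overlapped between the groups (189, 189 and 262 CPM against 202, 239 and 224 CPM, 0.05 ± 0.20, adjusted p = 0.877). Cdkn2a, the senescence locus of p16, rose from near its floor (0.0274, 0.0958 and 0.0898 CPM to 0.661, 2.58 and 1.13 CPM, adjusted p = 0.0301). Among 16 tested cell death effectors 1 rose, against 8.6% of all genes tested. It was Ripk3, a kinase of necroptosis that hepatocytes express little, which went from 1.7, 1.51 and 2.84 CPM to 9.95, 23.3 and 15 CPM (3.00 ± 0.42, adjusted p = 0.0156). Its partner Mlkl differed by 0.47 ± 0.21 (adjusted p = 0.199).

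Immune and endothelial markers were checked because both lineages had been gated out of the mesenchyme. Adgre1 (F4/80), which marks macrophages, was at 0, 0 and 10.2 CPM in HepOrgs and 0.044, 0 and 0 CPM in assembloids, and the pan-leukocyte gene Ptprc at 0.0821, 0 and 1.59 CPM and 0.22, 0.42 and 0 CPM. Of the 13 immune genes 5 were at 0 in all 3 assembloid libraries. The sum over the list was 7.24 to 16.9 CPM in assembloids and reached 835 CPM in HepOrg replicate 3, mostly from Lyz2, at 0.0274, 11.1 and 744 CPM in HepOrgs. Cd68, a lysosomal protein of macrophages, fell from 6.51, 18.1 and 33.7 CPM to 1.87, 3.22 and 2.64 CPM (-2.92 ± 0.60, adjusted p = 0.0346), and without HepOrg replicate 3 it was not called (adjusted p = 0.0555). Pecam1 and Cdh5, which define endothelium, were at most 0.164 and 0.15 CPM in any library.

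The called genes with the highest fold changes joined mesenchymal and epithelial products. Under the fixed naming rule they were Chil4, Ccl11, Mgp, Postn, Sprr2a3, Krt20, Msln, Nkd2, Itm2a and Gdf10. Mgp, an inhibitor of calcification made by fibroblasts, was at 0, 0 and 0.659 CPM in HepOrgs and 298, 276 and 447 CPM in assembloids, with all assembloid libraries close together (10.66 ± 1.41, adjusted p = 0.0141). Msln, mesothelin, was at 0.164, 0 and 3.68 CPM and 233, 824 and 263 CPM (8.44 ± 1.83, adjusted p = 0.0381). Krt20, a keratin of gut and injured duct epithelium, was at 0.137, 0.144 and 0.479 CPM and 12.1, 405 and 7.87 CPM (9.15 ± 2.05, adjusted p = 0.041), and Chil4, a chitinase-like protein, at 0.0274, 0.288 and 0 CPM and 54, 757 and 21.6 CPM (11.23 ± 2.09, adjusted p = 0.0281). Assembloid replicate 2 was the highest library for Msln, Krt20, Chil4 and Sprr2a3. Nkd2, which restrains Wnt signalling, was even across assembloids, from 0.0821, 0.12 and 1.05 CPM to 80.8, 62.6 and 80.2 CPM (7.52 ± 0.91, adjusted p = 0.0131). Chil4 and Sprr2a3 belong to families of near-identical genes, so their reads may be shared with relatives.

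The homeostatic assembloids were of the same age and differed from the fibrotic-like ones in the number of mesenchymal cells seeded. In a fit of 9 libraries, 762 of 13531 genes (5.63%) were higher in fibrotic-like than in homeostatic assembloids and 51 (0.377%) were lower. Col1a1 was at 50.8, 68.4 and 68.4 CPM in homeostatic assembloids, and the fibrotic-like assembloids exceeded it by 3.85 ± 0.90 (adjusted p = 0.0444). Pdgfra was at 1.91, 1.46 and 4.32 CPM, and the fibrotic-like assembloids exceeded it by 4.46 ± 0.70 (adjusted p = 0.0179). Krt19 was at 65.6, 46.6 and 37.4 CPM, and the difference of 3.75 ± 1.20 (adjusted p = 0.0916) missed the threshold. Serpina7 was at 2093, 2226 and 2825 CPM, between the 2 groups, and missed the threshold against the fibrotic-like ratio (-1.91 ± 0.51, adjusted p = 0.0613). These 2 comparisons share the fibrotic-like libraries. The result also depended on single libraries, with 0, 4 and 13 calls without homeostatic replicate 2, 1 or 3.

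At 1 week the fibrotic-like assembloids were compared with HepOrgs kept in MM for the same 7 days, in libraries separate from the late ones. There, 1971 of 13467 genes (14.6%) were higher and 1463 (10.9%) were lower. Of the 1138 genes called higher late, 794 (69.8%) were also called higher at 1 week, which is 40.3% of the genes called higher at 1 week. Of the 243 called lower late, 158 (65%) were called lower at 1 week, which is 10.8% of that set. Col1a1 was at 61, 24.9 and 40.4 CPM in 1-week HepOrgs and 677, 1343 and 61.6 CPM in 1-week assembloids, a difference of 4.01 ± 1.05 (adjusted p = 0.037). Alb was at 14209, 10089.8 and 10266 CPM and 4745, 7837 and 617 CPM (-1.43 ± 0.87, adjusted p = 0.255).

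The hepatocyte lists had more called members at 1 week. At 1 week 8 of 24 plasma protein genes, 11 of 31 metabolic enzymes, 8 of 19 transporters and 9 of 18 transcription factors measured at both ages were lower, and 0, 0, 3 and 1 were higher. Calls were more frequent at 1 week over all genes too, with 10.9% lower against 1.84% late. The list medians at 1 week were -2.12, -2.32, -1.65 and -1.33, against late medians of -0.74, -0.27, -0.65 and -0.71. How far the 1-week values rest on single libraries was not tested. Replicate 3 of the 1-week assembloids had the lowest Alb level of its group. Cyp2e1 differed by -6.48 ± 1.97 (adjusted p = 0.0539) at 1 week. The difference between the late and the 1-week effect was itself tested and passed the threshold in 0 of 14210 genes, that is 0% (edgeR, 996 genes at an unadjusted p under 0.05), and DESeq2 called 47. A change of the effect with time was therefore not detectable for any single gene in the edgeR fit.

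**Figure D4:**
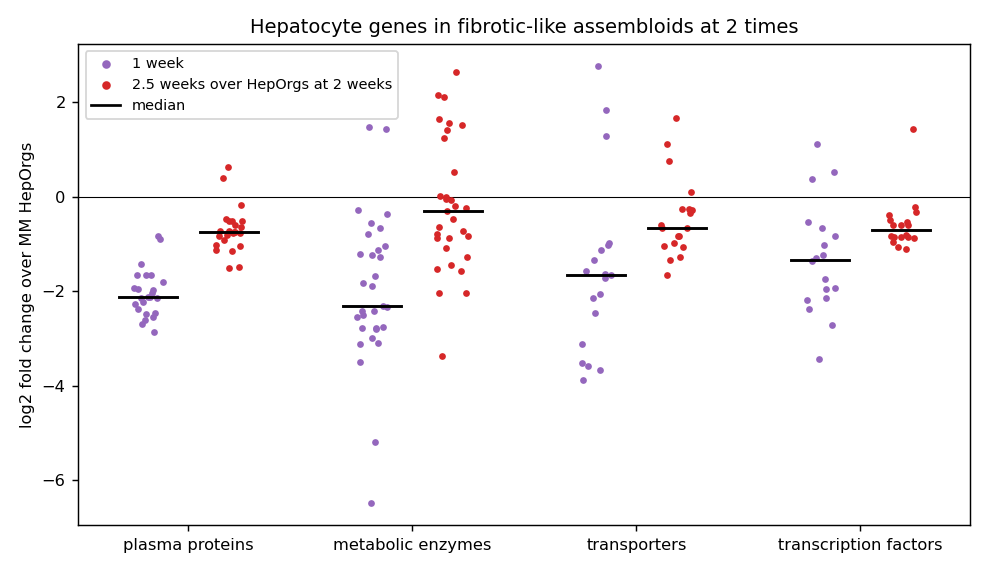
Log2 fold change over MM HepOrgs (y axis) of the members of 4 hepatocyte gene lists in fibrotic-like assembloids at 1 week (purple, HepOrgs at 1 week as control) and at 2.5 weeks (red, HepOrgs at 2 weeks as control); points are genes and black ticks are medians over the genes measured at both times. The late medians lie nearer to 0 than the 1-week medians in all 4 lists.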

How the data were processed

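Bulk RNA-seq libraries (SMART-seq2, paired-end) of MM HepOrgs and assembloids were analysed from the read counts that the authors deposited, made by aligning reads to GRCm39 with STAR and counting per gene with featureCounts. The long table held 37 libraries and 21850 rows (21848 genes and 2 reporters); 27 libraries belong to the samples and 10 were not used. Normalised values (TPM) stand beside the counts, divided by a length that lay within 5% of the whole gene span for 80.82% of 21705 annotated genes, so TPM served only as an alternative scale and CPM levels, which have no length correction, were tested within a gene.

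Counts of 3 against 3 libraries were fitted with edgeR 4.0.16 in R 4.3.3 (filterByExpr, TMM, quasi-likelihood test, Benjamini-Hochberg over all genes tested, threshold 0.05, no covariate). The adjusted p-values in the report come from this test unless another tool is named. Log2 fold changes are given ± SE. This SE was back-calculated as the absolute log2 fold change divided by the square root of the quasi-likelihood F statistic. It is only a rough guide for genes near 0 in HepOrgs. Fits with 9 libraries (homeostatic assembloids) and 12 libraries (the late against the 1-week effect) used the same test. DESeq2 1.42.0, limma 3.58.1 on log2(TPM + 1) and log2(TPM + 0.1), other filters and size factors, other sets of libraries, a replicate block and omission of each library were alternatives. The alternative with 27 libraries also held HM-Wnt HepOrgs and freshly isolated hepatocytes. Replicate 3 of these hepatocytes was titled WT but carried an MDR2-het genotype label. The code was tested on simulated data. A floor of 3 reads in a library stands for genes at 0 and covers counting error only.

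The comparison and the 28 gene lists (513 genes) were chosen with earlier results of these data known, so no p-value was computed over a list. Named genes were those the study names for these cultures, the 10 called genes with the highest and the 10 with the lowest fold change whose mean log2 CPM reached 5 and whose groups did not overlap, and, in each list, the 3 called members that changed most, the 3 members with the highest counts and up to 3 uncalled members with the highest counts; other members named in the text were picked after their values were seen. Some genes that this rule names are not reported here. Between late fibrotic-like assembloids and MM HepOrgs, replicate numbers did not pair the samples: the deviations of same-numbered libraries correlated at 0.223, -0.197 and -0.181. Pairing between the assembloid groups was not tested.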

Additional observations from a re-analysis of the deposited data

Results flagged for a closer look

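Mt1 and Mt2, the metallothionein genes, were noted because they moved in opposite directions at the 2 ages. At 1 week every fibrotic-like assembloid library lay below every HepOrg library, and at 2.5 weeks every one lay above. The late minus 1-week difference of the log2 fold changes was 2.539 for Mt1 and 2.643 for Mt2. Tested as a difference of effects over all genes, neither passed the threshold (edgeR, adjusted p = 0.668 for both; DESeq2, adjusted p = 0.123 and 0.121). Of 13026 genes measured in both comparisons, 48 showed such opposite positions without overlap, 20 of them lower at 1 week and higher late.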

How the results depend on the processing

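The 1381 calls of late fibrotic-like assembloids against MM HepOrgs became 3000 with DESeq2, 2295 with 9 late libraries in the fit, 856 with at least 10 counts in every library, 609 on log2(TPM + 0.1), 499 on log2(TPM + 1), 223 with 27 libraries and 0 with 18 MM libraries (edgeR, 2063 at an unadjusted p under 0.05). The fits with 27 and 18 libraries both held replicate 2 of the 1-week homeostatic assembloids. That library had counts in 8465 genes, against 14016 to 16018 in the others. Its effect on the number of calls was not tested. With the replicate block the 1381 calls became 419, although numbers did not pair these samples, and 228 in place of 813 against homeostatic assembloids. Pairing of fibrotic-like with homeostatic libraries was not tested, and eGFP reads were highest in replicate 3 of both groups. Leaving out each library gave 13 to 1051 calls, and 0 to 1445 against homeostatic assembloids, where DESeq2 gave 2496. Among the named genes, 95 were called, and 58 with at least 10 counts in every library, 26 with 27 libraries, 0 with 18, 54 with the replicate block and 2 to 82 without each library. DESeq2 called 47 genes for the late against the 1-week effect, and edgeR 0 under its alternatives. The cause was not tested. All 95 called named genes kept their sign in each alternative fitted, and 34 uncalled ones changed sign in at least 1. In the called ones the groups did not overlap, so omitting a library could hardly change their sign. RLE size factors, no count filter, a fold limit of 2 and 1-week HepOrgs as the control kept the main count within 1.5 times (1373, 1184, 1197 and 1631). With 3 libraries a group and HepOrg replicate 3 apart from its group, a missed threshold does not show equality.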
